A study of Mus musculus with 4 samples.

Results

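The 4 *Hox* genes of paralogue group 9, *Hoxa9*, *Hoxb9*, *Hoxc9* and *Hoxd9*, were followed through stromal cells of the mouse intestine at embryonic stage E12.5. They were taken by name from the 28692 genes listed in the files, which hold 39 *Hox* genes in all, and all 4 were listed and had UMIs (unique molecular identifiers, which count single captured transcripts) in each library. *Hox* genes encode homeodomain transcription factors that lie in 4 chromosomal clusters, *Hoxa* to *Hoxd*, and genes of one number in different clusters are paralogues that descend from one ancestral gene. Within a cluster, genes with low numbers are expressed from anterior levels of the body and genes with high numbers only posteriorly, and group 9 is the first of the posterior, Abdominal-B-type groups. In the gut, the mesoderm around the endoderm carries such nested *Hox* domains, and the posterior groups are expressed toward its posterior end.

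The cells came from 2 libraries of small intestine (SI) and 2 of large intestine with cecum (LI), from untreated embryos of the strain labelled EYFP (C57BL/6). EYFP sires, offspring of a cross of Cre mice with mice that carry a conditional EYFP reporter, were mated with C57BL/6Nrj dams, and each of 2 separate experiments pooled several embryos. The sort took live cells with Itgb1 and YFP and left out blood cells (CD45, Ter119), endothelium (CD31) and epithelium (EpCAM), so no comparison here concerns the epithelium. The p-values therefore measure the spread between 2 pools per region. The GEO labels name adult colonic lamina propria in one field, while titles and protocol give the embryonic stage and the region, which are used here.

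The libraries held 5151 to 6881 cell barcodes and 31630548 to 62886525 UMIs, and 22094 cells were kept, with a median of 4220.5 UMIs per cell in LI replicate 1 and of 8382 to 8829 in the other 3 libraries. *Hox* genes were taken out of the genes used for clustering, so that no cell group was defined by them directly. Other genes that differ between regions were not taken out for that reason. Clusters were then named from markers. Smooth muscle-like cells (*Myh11*, *Acta2*, *Actg2*), mesothelial-like cells (*Upk3b*, *Krt19*, *Wt1*) and neural-like cells (*Sox10*, *Tubb3*) formed separate groups, and 3 clusters with fibroblast markers and no leading marker of another class were joined as other mesenchyme. Another such cluster of 158 cells (cluster 10) was left without a name, because 93.0% of its cells came from LI replicate 2, above a limit of 90% from 1 library. Other mesenchyme had 3382, 2355, 2233 and 2490 cells in LI replicate 1, LI replicate 2, SI replicate 1 and SI replicate 2. Smooth muscle-like cells numbered 944, 798, 1342 and 1908, mesothelial-like cells 639, 235, 270 and 173, and neural-like cells 220, 264, 326 and 436 in that order. The summed level of the 11 smooth muscle markers within smooth muscle-like cells was 1494 CPM (UMIs of a gene scaled to a common total) in LI replicate 1 against 4863 to 10090 in the other libraries, and its part in the results for these cells was not tested. Between 8 and 15 barcodes were shared by any pair of libraries, and 22 to 30 kept cells of a library had such a barcode.

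In the mm10 build, *Hoxa9* (ENSMUSG00000038227) lies at chr6:52223100-52231089 on the minus strand, *Hoxb9* (ENSMUSG00000020875) at chr11:96271457-96276595, *Hoxc9* (ENSMUSG00000036139) at chr15:102976439-102985099 and *Hoxd9* (ENSMUSG00000043342) at chr2:74697727-74700208, the last 3 on the plus strand. In GENCODE, no exon of another gene listed in the files overlapped an exon of any of the 4 on either strand. The only overlap was that of *Mir196b*, a microRNA gene within *Hoxa9* that is not among the listed genes. The promoters of *Hoxa9* and *Hoxd9*, the pair with the largest differences between regions below, are shown as RefSeq (GRCm38.p6) gives them, from 250 to 51 bases before the gene start, 5′ to 3′ on the strand of the gene, with each CpG in capitals.
Hoxa9, chr6:52227421-52227620, minus strand: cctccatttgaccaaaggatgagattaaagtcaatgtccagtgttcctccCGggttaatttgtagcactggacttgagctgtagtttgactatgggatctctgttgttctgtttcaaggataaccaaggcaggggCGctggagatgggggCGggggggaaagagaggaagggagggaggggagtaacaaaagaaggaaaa
Hoxd9, chr2:74697513-74697712, plus strand: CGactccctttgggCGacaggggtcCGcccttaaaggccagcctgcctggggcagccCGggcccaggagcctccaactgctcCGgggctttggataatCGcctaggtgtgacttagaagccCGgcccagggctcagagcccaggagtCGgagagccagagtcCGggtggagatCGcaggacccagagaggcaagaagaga

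The *Hoxa9* window holds 3 CpGs at a GC content of 49.5% and the *Hoxd9* window 10 at 65.5%, while the 32851 RefSeq promoter windows of this length held a median of 4 (quartiles 2 and 11). GENCODE places the *Hoxa9* window inside an intron of longer *Hoxa9* transcripts, and part of the *Hoxd9* window in an exon of an antisense RNA that is not among the listed genes. Both strands were searched for TTTATG, the core of the site of the caudal factors CDX, for TTTAT, the core read by posterior HOX proteins (which every TTTATG contains), for TGATT, the core of the PBX site, for the retinoid receptor element AGGTCA, and for TATAAA, the TATA box. Neither window had a match, whereas 8.78%, 31.6%, 28.8%, 11.4% and 9.14% of all windows had one, in that order. RefSeq windows for *Hoxb9* and *Hoxc9* were not used here.

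All 4 paralogues were higher in LI than in SI in other mesenchyme, by amounts that ran from 2.88-fold for *Hoxc9* to 157-fold for *Hoxd9*. UMIs are tags from 1 end of a transcript and capture differs between transcripts, so levels are compared below for 1 gene between samples and not between genes. CPM values are UMIs of the gene per 1e6 UMIs of the same cell group in the same library.

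*Hoxd9*, which acts with the other group 9 genes in limb, axial and urogenital patterning, had 214 and 144 CPM in other mesenchyme of LI replicates 1 and 2 and 0.336 and 1.83 CPM in SI replicates 1 and 2. These levels rest on 3189, 3185, 7 and 40 UMIs, and both LI libraries lay far above both SI libraries. The regional means were 179 ± 49.6 CPM in LI and 1.08 ± 1.06 in SI (SD, n = 2), a log2 fold change of SI over LI of −7.22 ± 0.52 (SE) with an adjusted p = 0.000137 in edgeR's quasi-likelihood test over 13666 genes. *Hoxa9*, known for its part in blood stem cells and leukemia as well as in axial patterning, had 164 and 131 CPM in LI and 2.49 and 5.21 CPM in SI, from 2437, 2902, 52 and 114 UMIs. Its log2 fold change was −5.12 ± 0.33 (adjusted p = 8.0e-05, edgeR), and its regional means were 148 ± 22.9 and 3.85 ± 1.92 CPM. SI replicate 2 had more of both genes than SI replicate 1, and without SI replicate 2 the pooled ratio of LI to SI rose from 157 to 514 for *Hoxd9* and from 37.2 to 57.9 for *Hoxa9*.

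*Hoxb9*, which takes part in patterning the thoracic skeleton, had 119 and 170 UMIs in LI and 8 and 38 in SI. Its level was 8.0 and 7.7 CPM in LI and 0.384 and 1.74 CPM in SI, so the LI libraries were close to each other while the SI libraries differed by several-fold without reaching them. The log2 fold change was −2.73 ± 0.49 (adjusted p = 0.0177, edgeR), and the pooled ratio of LI to SI moved from 7.26 to 20.4 without SI replicate 2. *Hoxc9*, a gene of thoracic identity in motor neurons and the axial skeleton, had the smallest difference. It stood at 71.8 and 53.3 CPM in LI and at 19.7 and 22.4 CPM in SI, from 1069, 1178, 411 and 490 UMIs, and the regions did not overlap. Its log2 fold change was −1.43 ± 0.22 (adjusted p = 0.00811, edgeR). Among the 13666 genes tested, 2.52% were called higher in LI, against 4 of the 4 paralogues. Of these genes, 36.6% had both LI libraries above both SI libraries. Markers of other cell types moved with region in other mesenchyme as well. The 11 smooth muscle markers summed to 876 and 1026 CPM in LI and 1213 and 1792 in SI, the 5 pericyte markers to 28.3 and 38.5 in LI and 48.3 and 81.3 in SI, and the 7 epithelial markers to 12.1 and 14.9 in LI and 6.62 and 5.85 in SI. The immune, stomach, urogenital and hindlimb and body wall lists did not overlap between regions either, with sums of at most 5.51 CPM. The part of these markers in the result was not tested.

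**Figure D1:**
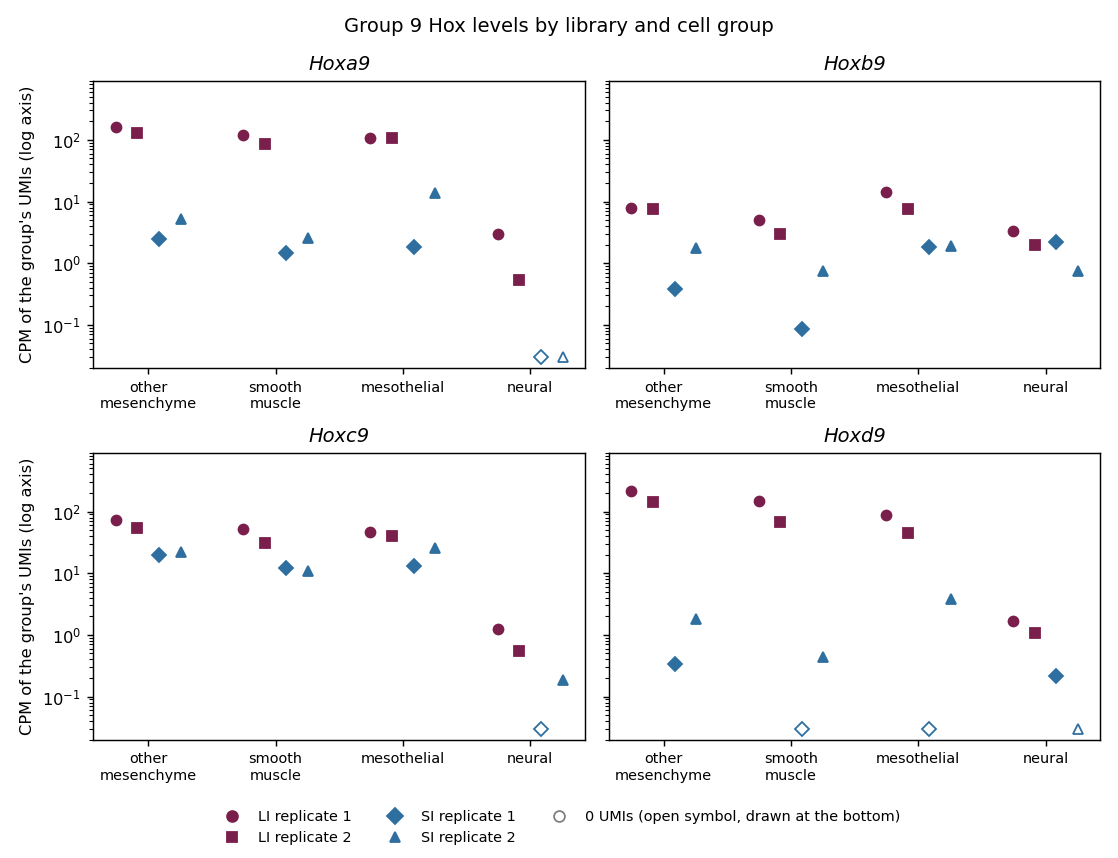
Level of each group 9 gene in CPM (log axis) by cell group, with 1 symbol per library and open symbols at the bottom for libraries with 0 UMIs. In other mesenchyme, *Hoxd9* fell from 214 and 144 CPM in LI to 0.336 and 1.83 in SI, while *Hoxc9* stayed at 19.7 and 22.4 CPM in SI. In neural-like cells no gene exceeded 3.38 CPM in any library.

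Smooth muscle-like cells showed the same order of differences, with *Hoxd9* and *Hoxa9* at the large end and *Hoxc9* at the small end. 3 of the 4 paralogues were called higher in LI (*Hoxa9*, *Hoxc9* and *Hoxd9*), against 1.18% of 12294 genes. *Hoxd9* had 148 and 67.9 CPM in LI, no UMI in SI replicate 1 and 7 UMIs (0.432 CPM) in SI replicate 2, for a log2 fold change of −8.55 ± 0.68 (adjusted p = 0.00105, edgeR). Against the floor of 3 UMIs in SI replicate 1 alone, *Hoxd9* was at least 373-fold higher in LI. *Hoxa9* stood at 119 and 85.3 CPM in LI and at 1.47 and 2.59 CPM in SI (log2 fold change −5.46 ± 0.33, adjusted p = 0.000194). *Hoxc9* stood at 52.7 and 31.1 CPM in LI and at 12.2 and 10.9 CPM in SI (log2 fold change −1.71 ± 0.28, adjusted p = 0.0248). *Hoxb9* had 22 and 23 UMIs in LI and 1 and 12 in SI, and its log2 fold change of −2.90 ± 0.68 did not pass the threshold (adjusted p = 0.0923, edgeR). For all 4 genes both LI libraries were above both SI libraries, as they were for 34% of the genes tested. Markers that did not overlap between regions in these cells were the epithelial ones, at 19.9 and 13.6 CPM in LI and 11.2 and 5.68 in SI, and the endothelial, stomach and urogenital ones at up to 2.26 CPM. Their part was not tested.

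In mesothelial-like cells, the serosal lining of the gut, 2 of the 4 paralogues were called higher in LI, against 0.582% of 10648 genes. *Hoxd9* had 87.2 and 44.2 CPM in LI and 0 and 3.8 CPM in SI (0 and 6 UMIs), with a log2 fold change of −5.25 ± 0.66 (adjusted p = 0.00260, edgeR). *Hoxa9* had 108 and 105 CPM in LI and 1.83 and 13.9 CPM in SI (4 and 22 UMIs), with a log2 fold change of −3.82 ± 0.48 (adjusted p = 0.00257). Without SI replicate 2 the pooled ratio of LI to SI went from 15.5 to 58.4 for *Hoxa9*, and for *Hoxd9* it went from 42.4 to at least 49.2. *Hoxb9* (14.3 and 7.56 CPM in LI, 1.83 and 1.90 in SI) and *Hoxc9* (45.9 and 40.6 CPM in LI, 13.3 and 25.3 in SI) kept the regions apart but did not pass the threshold, with adjusted p = 0.0750 and 0.142 and log2 fold changes of −2.48 ± 0.57 and −1.14 ± 0.31. Marker sums that did not overlap between regions in these cells were those of smooth muscle (804 and 534 CPM in LI, 354 and 448 in SI), of interstitial cells of Cajal (56.6 and 87.5, 25.2 and 39.3), and of fibroblasts (1692 and 2705, 2826 and 3774). Nor did those of mesothelium itself (2372 and 2633, 2682 and 2793), of immune cells, or of hindlimb and body wall, the latter at up to 5.95 CPM. Their part was not tested. Of the genes tested, 24.8% had both LI libraries above both SI libraries. With 235 and 173 cells in LI replicate 2 and SI replicate 2, this was the smallest group by UMIs, and by DESeq2's Wald test none of the 4 passed (lowest adjusted p = 0.111), although all 4 had an unadjusted p under 0.05.

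**Figure D2:**
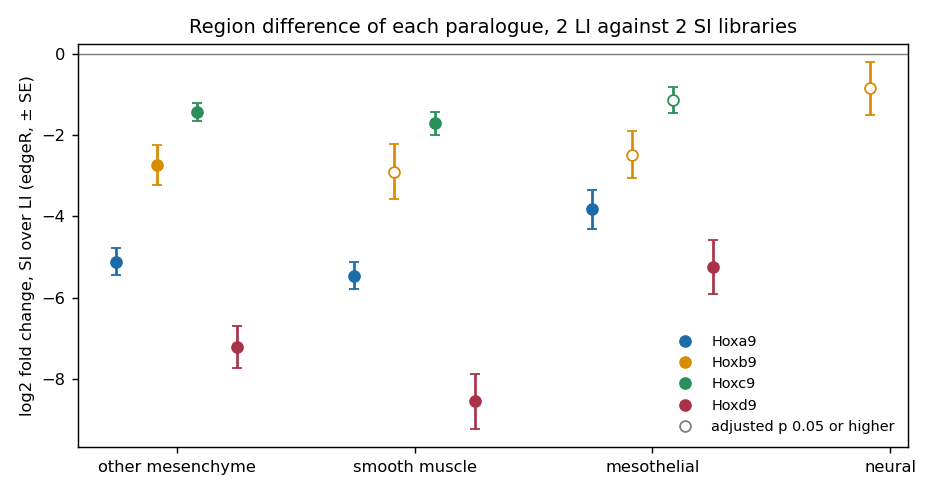
Log2 fold change of SI over LI with its SE for each paralogue in each cell group (edgeR, 2 libraries per region), with open symbols where the adjusted p was 0.05 or higher. *Hoxd9* lay lowest and *Hoxc9* highest in each of the 3 groups where all 4 were tested, from −7.22 to −1.43 in other mesenchyme.

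Neural-like cells, the enteric neural crest progenitors and early neurons that migrate into the gut wall, had few UMIs of any group 9 gene, and *Hoxb9* was the only one with enough to be tested between regions. These cells held only 22, 23, 11 and 5 group 9 UMIs in LI replicate 1, LI replicate 2, SI replicate 1 and SI replicate 2, although their median depth of 11107.5 to 19853 UMIs per cell was above that of other mesenchyme (4033 to 9100). *Hoxa9* had 7 and 3 UMIs in LI and none in SI, *Hoxc9* 3 and 3 in LI and 0 and 1 in SI, and *Hoxd9* 4 and 6 in LI and 1 and 0 in SI, and none of these passed the filter on low counts. The counting interval of the ratio of LI to SI was 1.80 to 550 for *Hoxd9* and 0.922 to 349 for *Hoxc9*, and its lower limit was 2.84 for *Hoxa9* (95%, exact binomial, counting error only). *Hoxb9* was at 3.38 and 1.97 CPM in LI and at 2.17 and 0.734 CPM in SI, and the regions overlapped. Its log2 fold change was −0.85 ± 0.64 with an adjusted p = 0.792 (edgeR), in a fit in which 0.31% of 11283 genes were called, 0.204% higher in LI, and in which 14.5% had both LI libraries above both SI libraries. The neural markers themselves did not overlap between regions in these cells (2880 and 3550 CPM in LI, 4120 and 4246 in SI). Nor did those of interstitial cells of Cajal (104 and 94.9, 78.8 and 86.3), or the epithelial, erythroid and immune ones at up to 3.49 CPM. Their part was not tested.

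Neural-like cells had less *Hoxa9*, *Hoxc9* and *Hoxd9* than other mesenchyme, whereas *Hoxb9* was not called with all 4 libraries. In a model over the 16 sums of library and cell group with library as a block, the log2 fold changes of neural-like over other mesenchyme were −7.46 ± 0.44 for *Hoxa9* (adjusted p = 4.2e-10), −6.86 ± 0.28 for *Hoxc9* (adjusted p = 2.0e-12) and −5.14 ± 0.44 for *Hoxd9* (adjusted p = 2.11e-08), while 33.9% of 13146 genes were called lower in neural-like cells. These values rest on few or no UMIs in the neural-like cells of SI. *Hoxb9* had a log2 fold change of −0.58 ± 0.41 (adjusted p = 0.229, edgeR), which turned to 0.45 without SI replicate 2 and was −1.39 and called without SI replicate 1 (adjusted p = 0.00789). *Hoxb9* made up 36.4%, 47.8%, 90.9% and 80.0% of the group 9 UMIs in neural-like cells of the 4 libraries (Wilson 95% intervals 19.7 to 57.0, 29.2 to 67.0, 62.3 to 98.4 and 37.6 to 96.4), against 1.75%, 2.29%, 1.67% and 5.57% in other mesenchyme of the same libraries. These intervals treat UMIs as independent, which UMIs of the same cell are not, and the difference in make-up was not tested.

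The *Hoxb9* UMIs of neural-like cells sat in few cells. In SI replicate 1, 8 of 10 came from 1 cell, and in LI replicate 2, 11 UMIs came from 4 cells, 2 of which had 4 each. LI replicate 1 had 8 UMIs in 4 cells and SI replicate 2 had 4 UMIs in 3 cells. In the neuronal cluster led by *Cartpt*, *Stmn2* and *Tubb3* lay 4 of 8 of these UMIs in LI replicate 1, 0 of 11 in LI replicate 2, 9 of 10 in SI replicate 1 and 1 of 4 in SI replicate 2. The others lay in the progenitor cluster with *Foxd3* and *Sox10* among its leading genes. The libraries of a region did not share a split. Of the neural-like cells, 10.5% and 9.47% in LI but 0 of 326 and 1 of 436 in SI had a UMI of any *Hox* gene of groups 10 to 13. These shares are without thinning. *Col3a1*, a fibroblast marker, was found in 13.2% and 22.3% of neural-like cells in LI and in 20.6% and 15.1% in SI. The part of RNA from other cells in these shares was not tested.

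Smooth muscle-like cells had less of each of the 4 paralogues than other mesenchyme, with 12.7% of genes called lower. The log2 fold changes were −0.72 ± 0.16 for *Hoxa9* (adjusted p = 0.00355), −1.12 ± 0.37 for *Hoxb9* (adjusted p = 0.0380), −0.72 ± 0.10 for *Hoxc9* (adjusted p = 6.03e-05) and −1.48 ± 0.30 for *Hoxd9* (adjusted p = 0.00161, edgeR). *Hoxb9* lost its call without LI replicate 1, LI replicate 2 or SI replicate 2 (adjusted p = 0.0597, 0.242 and 0.161) and with DESeq2 (adjusted p = 0.136), and without SI replicate 2 *Hoxa9* and *Hoxd9* lost theirs as well (adjusted p = 0.107 and 0.0998, edgeR). In mesothelial-like cells only *Hoxc9* was called, at −0.35 ± 0.14 (adjusted p = 0.0433, edgeR), in a fit where 24.2% of genes were called lower. It lost that call without LI replicate 1, LI replicate 2 or SI replicate 1 (adjusted p = 0.173, 0.0583 and 0.354, edgeR), and with DESeq2 (adjusted p = 0.263), where none of the 4 had an unadjusted p under 0.05. *Hoxa9*, *Hoxb9* and *Hoxd9* had log2 fold changes of 0.24 ± 0.22, 0.70 ± 0.50 and −0.37 ± 0.38 there.

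The difference between regions was not shown to depend on the cell group for any of the 4. In the interaction of region and cell group (edgeR, same 16 sums), 0 of 4 were called for smooth muscle-like, mesothelial-like or neural-like cells against other mesenchyme, where 0.456%, 1.69% and 11.4% of 13146 genes were called. At an unadjusted p under 0.05 there were 1, 2 and 1, and with DESeq2 0 of 4 were called each time and 1, 2 and 2 had such a p. In mesothelial-like cells the terms were 1.33 ± 0.46 for *Hoxa9* (adjusted p = 0.182) and 2.16 ± 0.93 for *Hoxd9* (adjusted p = 0.302, edgeR), where a positive term is a smaller excess of LI than in other mesenchyme. Without SI replicate 2 these terms were −0.032 and −3.20.

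The make-up of the group 9 UMIs changed between the regions. In other mesenchyme of LI, *Hoxd9* gave 46.8% and 42.8% of them, *Hoxa9* 35.8% and 39.0%, *Hoxc9* 15.7% and 15.8% and *Hoxb9* 1.75% and 2.29%, out of 6814 and 7435. In SI, *Hoxc9* gave 86.0% and 71.8%, *Hoxa9* 10.9% and 16.7%, *Hoxd9* 1.46% and 5.87% and *Hoxb9* 1.67% and 5.57%, out of 478 and 682. The share of *Hoxc9* was higher in both SI libraries than in both LI libraries, and this held in smooth muscle-like cells (16.2% and 16.6% in LI, 88.7% and 74.4% in SI) and in mesothelial-like cells (18.0% and 20.5% in LI, 78.4% and 56.3% in SI). Since UMIs of different genes are captured unequally, these shares are not to be compared between genes. Which library was made with which of the 2 kits is not given in the sources used here, so an effect of the kit on the capture of single genes cannot be told apart from replicate or region in these shares, in the ratios or in the fold changes.

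**Figure D3:**
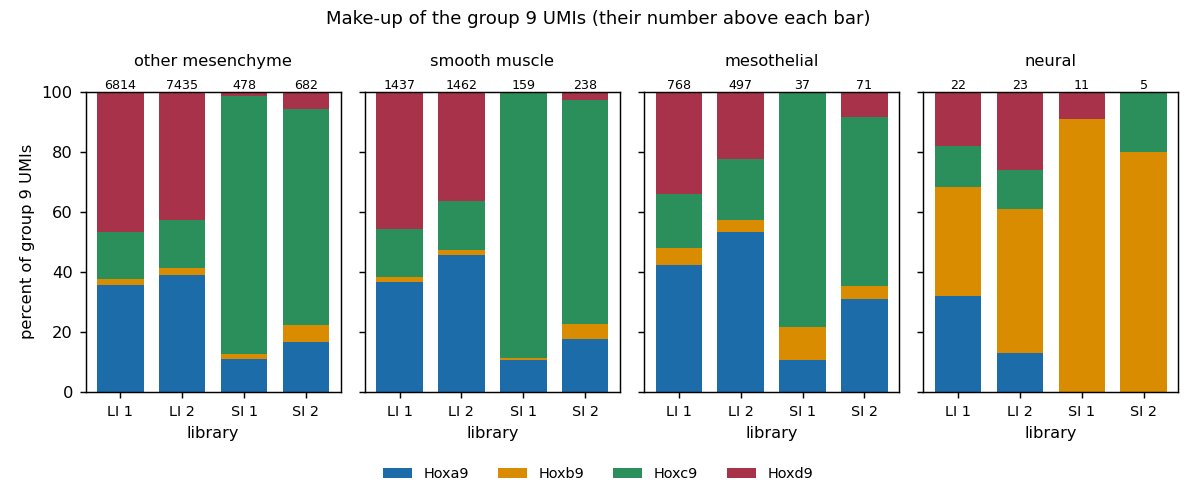
Percent of the group 9 UMIs that each paralogue gave, by library and cell group, with the number of UMIs above each bar. *Hoxc9* gave 15.7% and 15.8% in other mesenchyme of LI and 86.0% and 71.8% in SI, while *Hoxb9* gave 90.9% and 80.0% of the 11 and 5 UMIs in neural-like cells of SI.

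Ratios between the paralogues were compared for the 6 pairs, as log2 of UMIs with 0.5 added. In other mesenchyme the ratio of *Hoxd9* to *Hoxc9* was 1.58 and 1.43 in LI and −5.78 and −3.60 in SI, a change of −6.19, which was the largest of the 6. *Hoxd9* to *Hoxb9* changed by −4.53, *Hoxa9* to *Hoxc9* by −3.78, *Hoxd9* to *Hoxa9* by −2.41, *Hoxa9* to *Hoxb9* by −2.12 and *Hoxb9* to *Hoxc9* by −1.66. The SD between replicates was 0.08 to 0.36 in LI and 0.18 to 1.54 in SI, and none of the 6 pairs overlapped between regions. With 2 libraries per region the smallest p that a two-sided exact permutation test can give is 0.333, which each of the 6 pairs had (0.333 after Benjamini-Hochberg adjustment over the 6), so this design cannot reach 0.05. The order *Hoxd9*, *Hoxa9*, *Hoxb9*, *Hoxc9* by the size of the fall from LI to SI held in smooth muscle-like cells and in mesothelial-like cells as well, where the change in *Hoxd9* to *Hoxc9* was −7.66 and −4.78.

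Shares of cells with a UMI were compared after each cell was thinned to 3000 UMIs, which left out 691, 95, 27 and 35 cells of other mesenchyme in LI replicate 1, LI replicate 2, SI replicate 1 and SI replicate 2. *Hoxd9* was then detected in 40.2% and 31.1% of cells in LI and in 0.0907% and 0.652% in SI (Wilson 95% intervals 38.4 to 42.1, 29.2 to 33.0, 0.0249 to 0.330 and 0.402 to 1.06). *Hoxa9* was detected in 32.8% and 29.6% in LI and in 0.589% and 1.71% in SI. *Hoxc9* was detected in 18.2% and 15.8% in LI and in 4.85% and 6.19% in SI, and *Hoxb9* in 2.30% and 2.61% in LI and in 0.136% and 0.530% in SI. No gene overlapped between regions, and the exact permutation p was 0.333, the smallest possible. Without thinning the means were 52.5% and 0.795% for *Hoxd9*, 47.6% and 2.65% for *Hoxa9*, 28.5% and 13.8% for *Hoxc9* and 4.83% and 0.799% for *Hoxb9* in LI and SI.

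A share near that of free RNA cannot be read as expression, but the free RNA of each *Hox* gene was not measured here. *Hbb-y*, a red cell gene that mesenchyme should lack, was found in 0.892%, 0.133%, 0.499% and 0.855% of the same thinned cells in LI replicate 1, LI replicate 2, SI replicate 1 and SI replicate 2. The SI shares of *Hoxd9* and *Hoxb9* lay at or below that share of *Hbb-y* or within its interval (0.279 to 0.891 and 0.560 to 1.30), and those of *Hoxa9* did in SI replicate 1, while *Hoxc9* lay above it in both SI libraries. The share of *Hbb-y* does not measure free RNA of the *Hox* genes, whose part in the SI shares was not tested. In neural-like cells, at 212 to 428 thinned cells, each paralogue was found in at most 1.89% of cells of any library, and *Hoxa9*, *Hoxc9* and *Hoxd9* in 0 of 319 and 0 of 428 cells of SI, which allows up to 0.940% and 0.701% of cells with a UMI at this thinned depth. Without thinning, 1 of 326 neural-like cells of SI replicate 1 had *Hoxd9* and 1 of 436 of SI replicate 2 had *Hoxc9*. In smooth muscle-like cells *Hoxd9* was found in 0 of 1324 and 0 of 1867 thinned cells of SI, which allows up to 0.227% and 0.161% at that depth, and without thinning in 0 of 1342 and 6 of 1908 cells (0.314%). Intervals and limits cover counting error only.

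In other mesenchyme, *Hoxa9*, *Hoxc9* and *Hoxd9* were often found in the same LI cells. At 3000 UMIs per cell, 36.6% and 45.1% of other mesenchyme in LI had no UMI of any of the 4, 37.8% and 34.6% had UMIs of 1, 20.96% and 16.5% of 2 and 4.57% and 3.76% of 3. In SI, 94.4% and 91.5% had none, 5.58% and 7.86% had UMIs of 1 and 0.0453% and 0.611% of 2. *Hoxa9* and *Hoxd9* were both found in 16.5% and 13.1% of cells in LI, 1.25 and 1.43 times the product of their shares, and the same ratio was 1.22 and 1.33 for *Hoxa9* with *Hoxc9* and 1.22 and 1.32 for *Hoxc9* with *Hoxd9*. *Hoxb9* gave 1.18 and 1.31 with *Hoxa9*, 1.24 and 1.29 with *Hoxc9*, and 0.80 and 1.04 with *Hoxd9*. In mesothelial-like cells of LI the ratio was 1.21 and 0.76 for *Hoxa9* with *Hoxd9*. It was 1.03 and 0.79 there for *Hoxa9* with *Hoxc9*, and 0.75 and 1.93 for *Hoxc9* with *Hoxd9*. These ratios describe cells of 1 library each and are given without a test.

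The 3 clusters of other mesenchyme were also looked at one by one. In LI, *Hoxa9* had 213 and 163 CPM in the cluster led by *Pitx1* and *Igfbp5* (cluster 0), 141 and 105 in a cluster led by histone genes (cluster 2), and 37.6 and 61.3 in that led by *Anxa2*, *Tac2* and *Wnt4* (cluster 4). *Hoxd9* had 270 and 173, 158 and 98.1, and 136 and 127 CPM in the same order, and *Hoxc9* 78.0 and 56.9, 60.5 and 41.2, and 74.7 and 64.8 CPM. Cluster 4 was thus lowest for *Hoxa9* in both LI libraries but not for *Hoxc9*. *Hoxd9* was itself among the 10 leading genes of cluster 0, which were picked from these same cells. Fitted alone, *Hoxa9*, *Hoxc9* and *Hoxd9* were called higher in LI in each of the 3 clusters, where 3.15%, 2.11% and 0.39% of genes were in clusters 0, 2 and 4, while *Hoxb9* was not called in cluster 4 (log2 fold change −1.52, adjusted p = 0.568, edgeR). Within other mesenchyme of LI, *Hoxd9* stood at 282 and 183 CPM in cells scored as G1, at 168 and 107 in cells scored as S and at 163 and 109 in cells scored as G2M. *Hoxa9* stood at 195 and 157, 154 and 124, and 130 and 93.3 CPM in that order, and *Hoxc9* at 82.0 and 62.8, 64.4 and 39.5, and 64.6 and 48.1. These 3 genes were highest in G1 in both LI libraries, whereas *Hoxb9* was not, at 6.89 and 8.17, 9.13 and 8.93, and 8.51 and 5.90 CPM. None of this was tested.

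Of the clusters without a name, cluster 3 (*Bmp3*, *Col14a1*, *Rgs5*) had *Hoxc9* at 65.2 and 32.2 CPM in LI and at 4.97 and 5.07 CPM in SI. All 4 paralogues were called higher in LI there, against 2.28% of the genes tested, and *Hoxc9* had a log2 fold change of −3.12 ± 0.38 (adjusted p = 0.00270, edgeR). In cluster 5 (*Hist1h2bc*, *Epcam*, *Ccnb2*), 3 of the 4 were called, against 0.909% of genes, and *Hoxc9* was at 69.9 and 38.2 CPM in LI and 21.2 and 21.05 in SI (adjusted p = 0.0739). Whether the *Hoxc9* difference of cluster 3 is larger than that of other mesenchyme was not tested.

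Cluster 8, a small group of 407 cells, was the exception, because SI replicate 2 stood apart from SI replicate 1. Its leading genes were *Pf4*, *Afp*, *Mt1*, *Foxd1*, *Rbp4*, *Hbb-bt*, *Alb*, *Apoa2*, *Fgb* and *Ctla2a*, among them liver genes such as *Afp* and *Alb* and the globin gene *Hbb-bt*. At the finer resolution of 0.6, a cluster of 19 cells led by *Pf4* and *Afp* stood on its own, 12 of them from SI replicate 1, and the cluster led by *Foxd1* had 23 cells of SI replicate 1. That cluster of 400 cells counted as other mesenchyme at this resolution, where *Hoxb9* lost its call (log2 fold change −1.58, adjusted p = 0.335, edgeR). In cluster 8 itself, *Hoxd9* had 451 and 331 CPM in LI, 0 UMIs in SI replicate 1 and 48.0 CPM (64 UMIs in 121 cells) in SI replicate 2. *Hoxa9* had 155 and 177 CPM in LI, 0 UMIs in SI replicate 1 and 88.6 CPM (118 UMIs) in SI replicate 2. *Hoxb9* had 2.43 and 7.82 CPM in LI (1 and 8 UMIs) and 48.0 CPM in SI replicate 2 (64 UMIs, 0 in SI replicate 1), so here alone 1 SI library exceeded both LI libraries. Those 121 cells were 1.94% of the kept cells of SI replicate 2 and held 52.0%, 50.8% and 36.3% of its *Hoxd9*, *Hoxb9* and *Hoxa9* UMIs, but 2.88% of its *Hoxc9* UMIs. *Hoxc9* and *Hoxd9* were called higher in LI in this cluster (2.36% of genes were), with log2 fold changes of −2.58 ± 0.62 and −3.72 ± 0.78 (adjusted p = 0.0340 and 0.0176), *Hoxa9* was not (adjusted p = 0.290), and *Hoxb9* did not pass the filter on low counts.

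Other measures also differed between these libraries in cluster 8. SI replicate 1 gave only 34 cells, with 1152 CPM of erythroid genes against 0.977 to 34.0 CPM in the other libraries. Its 3 stomach markers summed to 146 CPM, led by *Barx1* with 93 UMIs, against 0.751 to 2.43 CPM elsewhere, and its 12 mesothelial markers to 427 CPM against 81.1 to 182. Of the cells, 95.4% and 97.9% in LI and 92.6% in SI replicate 2, but 0 of 34 in SI replicate 1, had a UMI of a *Hox* gene of groups 10 to 13. The 4 urogenital markers summed to 67.6 CPM in SI replicate 2 and to 0, 0.977 and 0 CPM in LI replicate 1, LI replicate 2 and SI replicate 1, with *Pax2*, a kidney and nephric duct factor, leading at 77 UMIs in 26 cells. The 5 pericyte markers summed to 107 CPM in SI replicate 2 (*Rgs5* leading with 113 UMIs) against 21.8 to 35.2 in the other libraries, and the 12 neural markers to 99.1 CPM (*Stmn2* leading with 69 UMIs) against 7.28 to 24.4. *Pax2* was singled out after its values were seen. All 26 of these cells had a UMI of a group 9 gene, as had 70 of the 95 others, without thinning to a common depth. *Hoxb9* stood at 104 CPM in the cells with *Pax2* and at 26.9 CPM in the rest. *Hoxd9* lay the other way, at 32.7 CPM in the cells with *Pax2* and 53.9 in the rest, while *Hoxa9* stood at 120 and 76.7 CPM and *Hoxc9* at 21.8 and 16.6 CPM. *Pitx1*, a hindgut and hindlimb factor, was found in 4.59% and 0.699% of cluster 8 cells of LI, in 0 of 34 in SI replicate 1 and in 1.65% in SI replicate 2, which lay between the LI libraries. The part of these markers in the result was not tested.

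**Figure D4:**
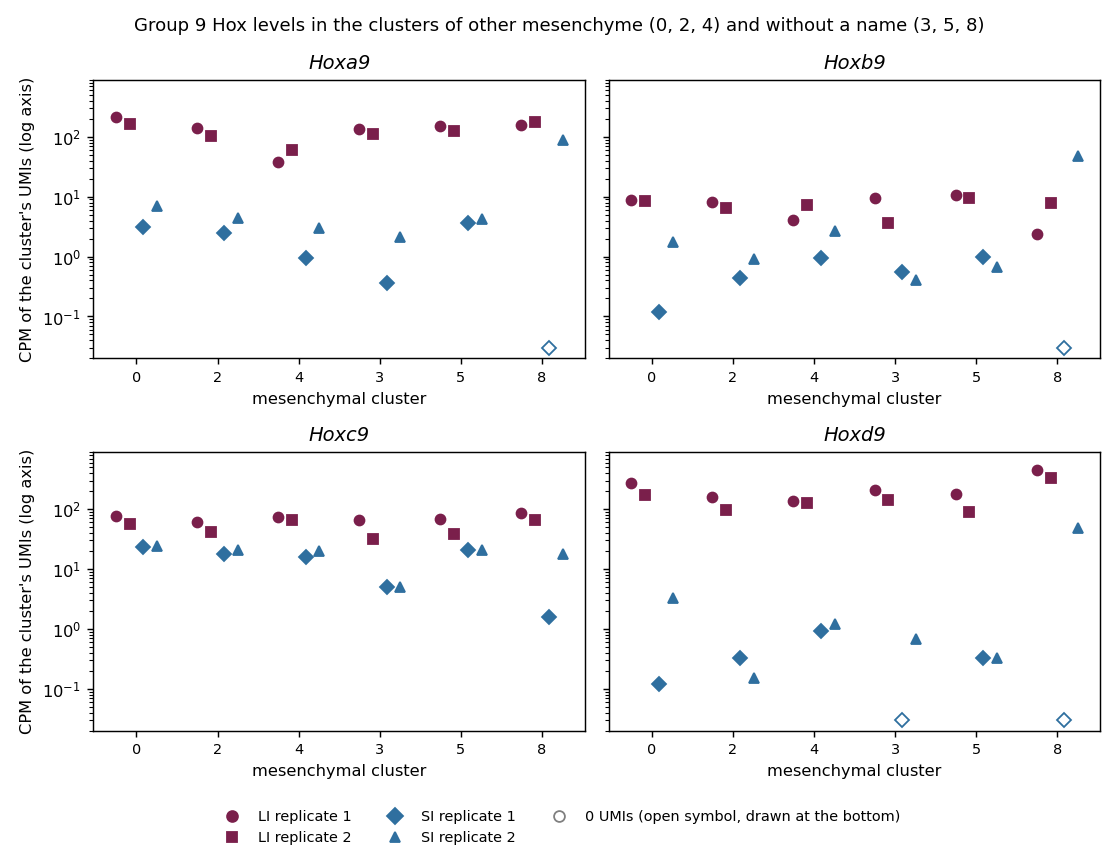
Level of each group 9 gene in CPM (log axis) in the mesenchymal clusters, with 1 symbol per library and open symbols at the bottom for 0 UMIs. SI replicate 2 reached 48.0 CPM of *Hoxd9* and of *Hoxb9* in cluster 8, while in each of the other 5 clusters its *Hoxd9* was at most 3.32 CPM.

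The few SI cells with a UMI of a group 9 gene were also searched for UMIs of *Hox* groups 10 to 13, as a description of cells of 1 library each. In SI replicate 2, 65.3% of the 98 cells with *Hoxd9*, 50.6% of the 89 with *Hoxb9* and 34.3% of the 210 with *Hoxa9* had one, but 5.75% of the 644 with *Hoxc9*, against 1.69% to 2.45% of the cells without the gene in question. Cluster 8 held 49, 36, 55 and 20 of these cells. Outside it the shares were 32.7% of 49, 17.0% of 53, 11.6% of 155 and 2.88% of 624, against 0.737% to 0.873% of the cells without the gene. In SI replicate 1 it was 2 of 7 cells with *Hoxd9*, 1 of 21 with *Hoxb9*, 5 of 73 with *Hoxa9* and 4 of 502 with *Hoxc9*. *Pitx1* was found in 0% to 1.12% of these SI cells, against 0.0195% to 0.0357% of the SI cells without the gene in question, and these SI shares rest on few cells. In LI it was found in 17.4% to 25.4% of the cells with a group 9 UMI, against 12.3% to 19.4% of the LI cells without the gene in question. For *Hoxb9* the LI cells with a UMI had *Pitx1* in 17.6% and 17.4% and those without in 19.3% and 18.5%. For *Hoxc9* the cells with a UMI had it in 18.4% and 21.9% and those without in 19.4% and 17.2%, so its LI libraries differed in direction.

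Beside the group 9 genes, the neighbours in the same clusters changed direction at the step from group 8 to group 9 in *Hoxb* and *Hoxc*. *Hoxb8*, the next gene of the *Hoxb* cluster, was higher in SI, at 41.2 ± 4.82 CPM against 5.37 ± 0.68 in LI of other mesenchyme (log2 fold change 3.09 ± 0.23, adjusted p = 0.000170, edgeR), whereas *Hoxb9* was higher in LI. *Hoxc8* was also higher in SI (log2 fold change 1.22 ± 0.22, adjusted p = 0.0176), whereas *Hoxc9* and *Hoxc10* (−5.89 ± 0.52, adjusted p = 0.000449) were higher in LI. In the *Hoxd* cluster the whole run was higher in LI, at −2.38 ± 0.22 for *Hoxd8*, −7.22 for *Hoxd9* and −9.05 ± 0.51 for *Hoxd10*, and in the *Hoxa* cluster *Hoxa7* was at 0.13 ± 0.20 (adjusted p = 0.812), *Hoxa9* at −5.12 and *Hoxa10* at −7.64 ± 0.67. Beyond *Hoxd10*, *Hoxb8*, *Hoxa10* and *Hoxc10*, which had the smallest adjusted p-values of the list, the neighbours were named after their values were seen, to complete each cluster. *Hoxb13*, the next posterior gene of the *Hoxb* cluster, had 0 UMIs in all 4 libraries of each named group.

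Of the 8 neighbours fixed for counting, 7 were tested in other mesenchyme and 6 called (3.59% of all genes were), 2 higher in SI and 4 in LI, with a median log2 fold change of −2.38 against 0.01 over all genes. In smooth muscle-like cells 5 of 7 were called (1.59% of all genes), 1 higher in SI and 4 in LI, and in mesothelial-like cells 5 of 7 (1.10% of all genes), 2 higher in SI and 3 in LI. In neural-like cells 1 of the 8 passed the filter, *Hoxb8*, and it was called, with 27.3 ± 8.17 CPM in SI and 5.47 ± 0.63 in LI (log2 fold change 2.29 ± 0.32, adjusted p = 0.0261, edgeR). The adjacent genes *Hoxb8* and *Hoxb9* were thus the group 8 and group 9 genes with enough UMIs to test in neural-like cells, and *Hoxb8* passed the test there while *Hoxb9* did not. Marker sums that did not overlap between regions in these cells are given above, and their part in this was not tested.

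**Figure D5:**
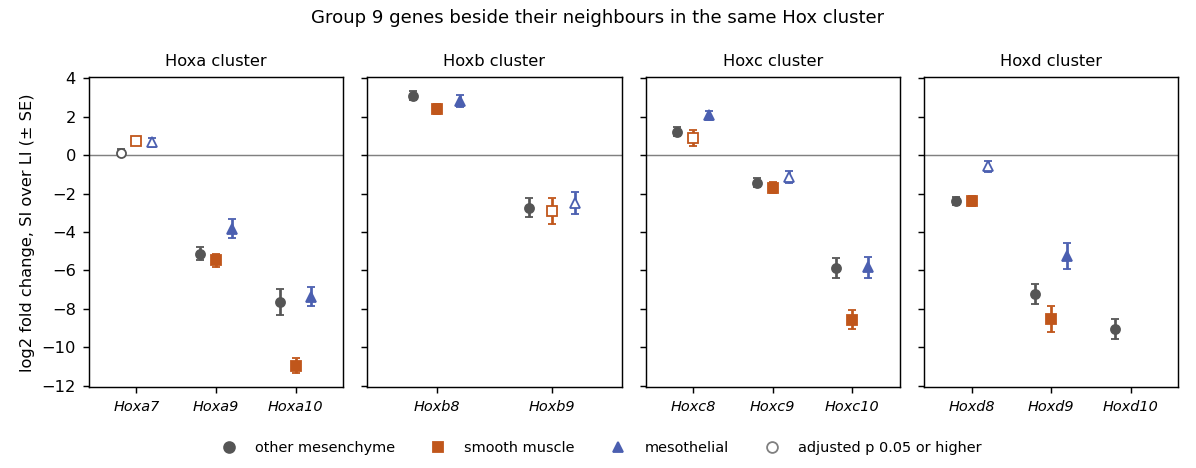
Log2 fold change of SI over LI with its SE for the group 9 genes and their neighbours in each *Hox* cluster, in 3 cell groups, with open symbols where the adjusted p was 0.05 or higher and no point where SI had 0 UMIs. *Hoxb8* and *Hoxc8* lie above 0 and *Hoxb9* and *Hoxc9* below it, while *Hoxd8*, *Hoxd9* and *Hoxd10* all lie below 0.

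The TALE homeodomain proteins (PBX, MEIS and PKNOX), which bind DNA together with HOX proteins, did not pass the test. Of the 9 genes, 0 of 35 tests over the 4 cell groups passed (edgeR, lowest adjusted p = 0.0881), and 4 had an unadjusted p under 0.05. Of 14 regulators of *Hox* transcription (CDX factors, *Gdf11*, Trithorax and Polycomb genes, *Ctcf* and retinoic acid receptors), 0 of 44 tests passed (edgeR, lowest adjusted p = 0.0807), with 8 at an unadjusted p under 0.05. Since 0.31% to 3.59% of all genes were called in these groups, a count of 0 in either list is near that background. *Gdf11*, named after its values were seen, is a ligand that sets posterior *Hox* expression in the trunk, and it was at 21.6 ± 1.94 CPM in LI and 12.3 ± 1.94 in SI of other mesenchyme (log2 fold change −0.68 ± 0.21, adjusted p = 0.149).

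Of 9 non-coding RNAs of the *Hox* clusters, 8 were listed in the files and 6 tested in other mesenchyme, of which 5 were called (3.59% of all genes were), 2 higher in SI and 3 in LI. *Hotairm1* (log2 fold change 2.82 ± 0.28, adjusted p = 0.000797) and *Hoxaas3* (2.54 ± 0.23, adjusted p = 0.000520), both of the anterior and middle *Hoxa* cluster, were higher in SI. *Hoxd3os1* (−2.68 ± 0.27, adjusted p = 0.000874) and *Haglr* (−3.97 ± 0.54, adjusted p = 0.00470, edgeR), both of the *Hoxd* cluster, were higher in LI. In smooth muscle-like cells 4 of 5 were called (1.59% of all genes), 2 in each direction, and in mesothelial-like cells 0 of 5 were (edgeR, 1.10% of all genes), with 3 at an unadjusted p under 0.05. *Hoxaas3* shares exon sequence with *Hoxa7* on the other strand, and the strand setting of the counting is not given in the sources used here.

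The genes most like each paralogue were sought over the 16 sums of library and cell group, by Pearson's r of log2 CPM among 13145 genes, which is a description since the sums share libraries and depth. For *Hoxd9* these were *Hoxc10* (r = 0.989), *Hoxa10* (0.981), *Itgav* (0.953), *Pitx1* (0.953) and *Gm14396* (0.947). For *Hoxa9* they were *Hoxc10* (0.947), *Hoxd9* (0.936), *Errfi1* (0.932), *Bmp1* (0.931) and *Fam214b* (0.929). For *Hoxc9* they were *Adamts10* (0.981), *Fst* (0.978), *Rest* (0.978), *Hpse2* (0.9755) and *Heph* (0.9746), none of them a *Hox* gene. For *Hoxb9* they were *Vstm2l* (0.878), *Specc1* (0.864), *Isoc1* (0.860), *Jun* (0.855) and *Gm53* (0.840). Among the 4, *Hoxa9* and *Hoxd9* were most alike by this measure (r = 0.936), followed by *Hoxa9* with *Hoxc9* (0.866) and *Hoxb9* with *Hoxd9* (0.827), and *Hoxb9* with *Hoxc9* were least alike (0.358). By Spearman's rho the order differed. *Hoxa9* with *Hoxc9* (0.949) then stood above *Hoxa9* with *Hoxd9* (0.939), and *Hoxc9* with *Hoxd9* (0.861) above *Hoxb9* with *Hoxd9* (0.817).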

How the data were processed

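Single-cell RNA libraries were made on the 10x Genomics platform with a 3′ v3 or a 5′ kit (which library had which is not given in the sources used here). The deposited matrices hold whole-number UMI counts per gene and cell, which the authors made with Cell Ranger 3.1.0 on mm10, per the submitters' processing notes and the study's methods. Cells with at least 1000 genes and under 10% mitochondrial UMIs were kept, and the highest doublet scores, 0.8% per 1000 cells, were removed (183 to 348 cells per library), since the automatic threshold marked 1 to 6 cells per library. Clusters came from Seurat 5.3.0 (30 components, resolution 0.3, 1971 genes after *Hox* and listed genes were taken out) and were named from 3 or more markers among their 10 leading genes, a rule set after the clusters were seen. UMIs were summed per library and cell group and tested with edgeR 4.0.16 (quasi-likelihood test, TMM, filterByExpr, Benjamini-Hochberg over all genes tested, threshold 0.05) in R 4.3.3, with DESeq2 1.42.0 as an alternative. Log2 fold changes are SI over LI with the SE taken as the size of the change over the square root of F. The fits were tested on simulated data. Named besides the 4 genes were the called members of the fixed lists with the smallest adjusted p, at most 4 a list, and the 5 genes most like each paralogue. The members and lists were chosen with earlier results of these data known. Exact permutation tests are two-sided, intervals are 95% Wilson or exact and cover counting error only, and a count of 0 is read against a floor of 3 UMIs.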

Additional observations from a re-analysis of the deposited data

Results flagged for a closer look

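SI replicate 2 had more *Hoxa9*, *Hoxb9* and *Hoxd9* in the unnamed cluster 8, which enters no comparison of named cell groups at the main resolution (at 0.6 a cluster led by *Foxd1* counted as other mesenchyme), than in other mesenchyme of the same library. *Hoxa9* stood at 88.6 CPM (Poisson 95% interval 73.3 to 106, counting error only) against 5.21 CPM in other mesenchyme. *Hoxb9* stood at 48.0 CPM (37.0 to 61.4) against 1.74 CPM, and *Hoxd9* at 48.0 CPM (37.0 to 61.4) against 1.83 CPM. SI replicate 1 had 0 UMIs of each of these 3 genes in 34 cells of the cluster. Urogenital, pericyte, neural, erythroid, stomach and mesothelial markers differed between the same libraries in this cluster, and their part was not tested.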

How the results depend on the processing

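With 2 libraries per region, each fit without 1 library assumes that the lone library of its region varies like the other region. *Hoxa9*, *Hoxc9* and *Hoxd9* kept their direction between regions in each alternative run in the 3 mesenchymal groups. The number of genes called was 491 in other mesenchyme, 195 in smooth muscle-like, 117 in mesothelial-like and 35 in neural-like cells. It became 1292, 878, 419 and 362 with no filter on low counts, 318 and 102 in smooth muscle-like and neural-like cells with DESeq2, and 60 in cluster 4 alone. Without 1 library it ran from 576 to 1701, 282 to 1206, 89 to 1024 and 0 to 1473. Replicate numbers do not mark a shared experiment in the labels, and the deviations of same-numbered libraries correlated at 0.2997, 0.3999, 0.225 and 0.310. With the replicate block the counts were 1346, 1295, 745 and 408, and *Hoxb9* in smooth muscle-like cells (−2.85) and *Hoxb9* (−2.50) and *Hoxc9* (−1.16) in mesothelial-like cells passed the threshold, while the block changed no other call of the 4 genes. *Hoxb9* in other mesenchyme lost its call at resolution 0.6 (−1.58), with the unnamed clusters added (−1.92), in cluster 4 alone (−1.52) and in 1 sum over all kept cells (−2.15), *Hoxc9* in cluster 5 alone (−1.25) and *Hoxa9* in cluster 8 alone (−1.67). In smooth muscle-like cells *Hoxb9* passed with DESeq2 (−3.04, adjusted p = 0.0337) and with no filter (−2.89), and ran from −5.11 to −2.20 without 1 library. In mesothelial-like cells *Hoxa9* (−3.73, adjusted p = 0.111) and *Hoxd9* (−5.10, adjusted p = 0.423) did not pass with DESeq2, *Hoxb9* (−2.50) and *Hoxc9* (−1.16) passed with no filter, and without 1 library these ran from −2.88 to −1.90 and from −1.62 to −0.72. Smooth muscle-like cells differed from other mesenchyme in 2832 genes, and in 1342 to 2473 without 1 library, when *Hoxb9* lost its call in 3 of 4 such fits. Interactions were called for 60, 222 and 1499 genes in smooth muscle-like, mesothelial-like and neural-like cells, for 14 to 85, 59 to 211 and 491 to 1099 without 1 library, for 28 in smooth muscle-like cells with DESeq2, and for 335 and 701 in the first 2 groups with no filter. Terms without 1 library that turned in sign, none of them called where turned, ranged as follows. The *Hoxb9* interaction in smooth muscle-like cells ran from −0.94 to 0.14 (without LI replicate 1). The *Hoxa9* difference of mesothelial-like cells ran from −0.42 (without SI replicate 2) to 0.47. The mesothelial-like interactions ran from −0.032 to 1.77 for *Hoxa9*, from −0.086 to 0.61 for *Hoxc9* and from −3.20 to 2.43 for *Hoxd9*, each lowest without SI replicate 2, and from −0.44 (without SI replicate 1; −0.0099 without LI replicate 2) to 1.70 for *Hoxb9*. The *Hoxb9* difference of neural-like cells ran from −1.39, which was called, without SI replicate 1 to 0.45 without SI replicate 2, and the neural-like *Hoxd9* interaction from −0.25 (without SI replicate 1) to 6.23. The share of cells with a UMI, SI minus LI in percentage points, moved from −30.1 to −23.6 at 2000 UMIs and to −45.0 without thinning for *Hoxa9*, from −2.12 to −1.19 and −4.03 for *Hoxb9*, from −11.5 to −8.23 and −14.7 for *Hoxc9*, and from −35.3 to −51.7 without thinning for *Hoxd9*. The cause of these changes was not tested. *Hoxb9* in each group and all 4 genes in neural-like cells rest on few UMIs, which limits the precision of their values.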
